A study of Mus musculus with 4 samples.

Results

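The genes described here are 34 interferon and double-stranded RNA response genes, out of 28649 gene rows in a table of RNA captured with a transfected microRNA mimic. They were chosen by symbol as the sensors, transducers and induced genes of the interferon response, with earlier results of these data known. All 34 had a row in the table and passed the filter on low counts, among 15240 genes tested. The RNA came from fibro-adipogenic progenitors (FAPs), the stromal progenitors of skeletal muscle, isolated by sorting for Sca1 from the muscle of C57Bl/6 wild-type animals and grown to about 80% confluency in medium with 20% fetal bovine serum, 10% horse serum and 5 ng/ml FGF. One group was transfected with a biotinylated miR-206 mimic and the other with a biotinylated control mimic, in each case for 24 hours. Both groups then spent 48 hours in basal medium with 10% horse serum before biotin capture, and each group has 2 libraries. The labels state neither the age of the mice nor the control mimic's sequence. All 4 libraries come from cells that took up a transfected RNA duplex, and no untransfected cells are among the samples. Nothing in the labels says that the replicates are separate cultures or animals, so the p-values below cover the spread between libraries alone, and that spread may be technical.

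Cells detect double-stranded RNA with cytosolic helicases of the RIG-I family, which signal through the mitochondrial adaptor MAVS to the factors IRF3 and IRF7 and so switch on interferon genes. Secreted type I interferon binds the IFNAR1 and IFNAR2 receptor, and a complex that includes STAT2 and IRF9 then induces a large set of antiviral genes. Among them are the sensors themselves, so the pathway feeds back on its own components. MicroRNAs such as miR-206, which is abundant in skeletal muscle, bind transcripts mainly through their seed, bases 2 to 8 from the 5′ end.

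The mature mouse miR-206 strands are shown because the capture depends on them, with the seed in capitals, together with the other mature microRNAs that carry the seed of the 3p strand in the RefSeq-based table for GRCm38.p6. Of 1738 mature microRNAs in that table, 3 carry it, miR-206-3p included. The table need not hold every mouse microRNA, so these 3 need not be the whole seed family. The gene of miR-206 lies on chromosome 1, with the 3p strand at chr1:20679055-20679076 on the plus strand.
mmu-miR-206-3p: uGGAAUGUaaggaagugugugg
mmu-miR-6349: uGGAAUGUgggaggggcaugcg
mmu-miR-6382: uGGAAUGUaaagagagcacacaag
mmu-miR-206-5p: aCAUGCUUcuuuauauccucaua
The first 3 share a seed, and the 5p strand of miR-206 has another. Transcript sequences of the 34 genes were not used here, so seed matches in them were not counted.

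The libraries held 14566568 and 15426666 estimated counts (miR-206) and 8883197 and 14261566 (control). As a description over all tested genes, r of log2 CPM was 0.97 for the miR-206 pair, 0.95 for the control pair and 0.83 to 0.86 across groups. Of 12 FAP markers, 3 were enriched and 1 was depleted, and their summed level was 10889 and 11643 normalised CPM in the miR-206 libraries, compared with 4675 and 6141 in the control libraries. Pdgfra, the defining receptor of FAPs, was close in both groups in normalised CPM, at 658 and 589 (miR-206) and 510 and 712 (control). In TPM it was lower in the miR-206 libraries without overlap, at 70.4 and 67.3, compared with 110 and 147 in the control libraries. Cd34 had 2686 and 3388 CPM (miR-206) and 234 and 305 (control), and Osr1 had 3603 and 3259 (miR-206) and 109 and 144 (control). These 2 genes carried most of the gap between the group sums, so the sums do not describe the marker set as a whole. Col1a1 went the other way, with 888 and 1080 CPM (miR-206) and 1442 and 1791 (control). Of 8 endothelial markers 2 were enriched, with sums of 125 and 117 CPM (miR-206) and 131 and 64.5 (control), and of 8 myogenic markers 2 were enriched and 1 was depleted, with sums of 116 and 93.0 (miR-206) and 96.0 and 91.4 (control). The part of these differences in the results below was not tested. Of 14 leukocyte markers, 7 stayed under 1 CPM in all 4 libraries and Tyrobp was at 0 in each. Their summed level was 16.6 and 22.5 CPM in the miR-206 libraries, compared with 27.0 and 22.5 in the control libraries. Here normalised CPM are counts scaled to library size with TMM factors, and TPM are the authors' values per transcript length. No library of unselected RNA was analysed, so a difference in capture and a difference in the amount of a transcript in the cells cannot be told apart.

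Of the 34 genes, 5 were enriched in the miR-206 pulldown and 3 were depleted, and 26 did not pass the test (edgeR quasi-likelihood test, adjusted p under 0.05 over all 15240 genes). The enriched genes were Ifi44, Ddx58, Ifitm3, Oas3 and Mavs, and the depleted ones Stat2, Ifi27 and Dhx58. These shares, 14.7% enriched and 8.82% depleted, lie near those of all tested genes, at 15.3% and 6.19%, so the counts alone do not set the group apart. The median log2 fold of the 34 genes was -0.33, against -0.11 for all tested genes, and 23 of the 34 folds were below 0 (67.6%, against 54.4% of all tested genes). Normalised CPM lay above the control range in both miR-206 libraries for 8 genes and below it in both for 17, where the shares over all tested genes were 29.7% and 32.3% (62.0% without overlap in either direction).

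The scaling between libraries set the balance of the calls. With the upper quartile 3 genes were enriched and 9 depleted (all tested genes 12.3% and 12.9%), with unscaled library totals 2 and 25 (7.02% and 45.3%), with log2(TPM + 0.5) 2 and 22 (7.24% and 39.0%), and with median-centred TPM 3 and 6 (12.3% and 6.01%). The median fold of all tested genes moved to -0.40, -1.22, -0.83 and -0.04 in these settings, and the median of the 34 genes lay below it in each, at -0.62, -1.45, -1.11 and -0.33. A pseudocount of 0.1 or 1 on TPM gave 2 enriched each, with 21 and 22 depleted (all tested genes 7.23% and 38.3%, and 7.17% and 38.5%). Ifi44 was called enriched, and Dhx58, Stat2 and Ifi27 depleted, under all 6 scalings. Of the 6, only unscaled library totals and log2(TPM + 0.5) called Ifih1, Adar, Oas1a, Oasl2, Oas2, Ifit2, Ifitm2, Isg15, Usp18, Mx1 and Rsad2 depleted. Ifnar2 and Mx2 were called depleted with unscaled library totals alone.

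The remaining alternatives gave the following counts. Size factors of the RLE method gave 5 enriched and 3 depleted (all tested genes 15.6% and 6.06%), as did DESeq2 (16.2% and 5.71%). With no count filter, a minimum of 50 counts or a replicate block there were 5 and 4, where all tested genes gave 10.3% and 5.04%, 16.2% and 7.36%, and 16.9% and 7.41%. Without miR-206 replicate 1 there were 4 and 2 (11.3% and 2.99%), and without miR-206 replicate 2 there were 3 and 3 (13.3% and 4.28%). Without control replicate 1 there were 3 and 5 (16.6% and 10.3%), and without control replicate 2 there were 5 and 4 (16% and 5.37%).

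**Figure D1:**
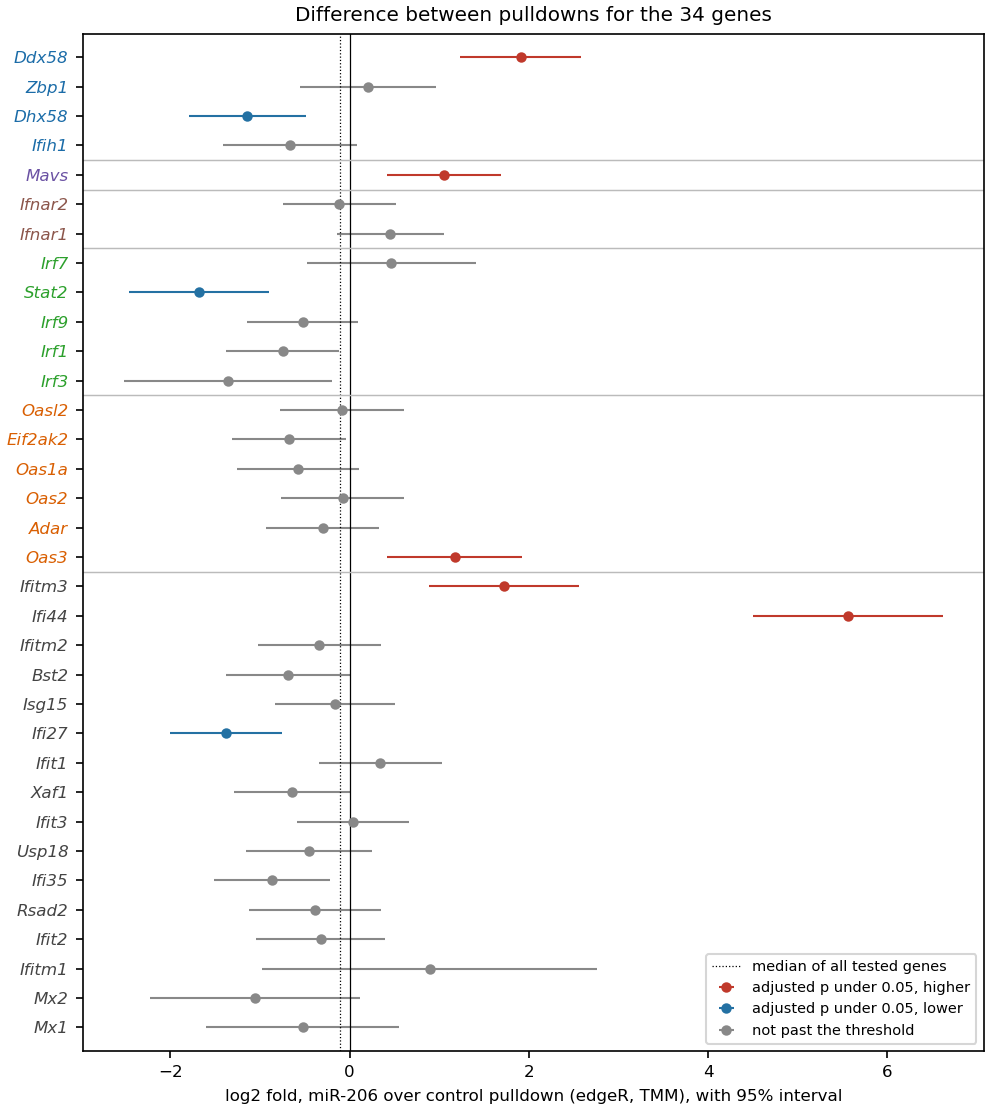
Log2 fold of each of the 34 genes, miR-206 over control pulldown, with its 95% interval, in blocks by role (label colours: sensors, adaptor, receptors, transcription factors, double-stranded RNA binding enzymes, induced effectors). Red and blue points passed the test, grey ones did not, and the dotted line is the median of all tested genes at -0.11; Ifi44, at 5.56, stands far from the other 33.

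Of the 4 RNA sensor genes, Ddx58 was enriched, Dhx58 was depleted and 2 did not pass. Ddx58, which encodes RIG-I, the helicase that detects short double-stranded RNA with a triphosphate end (chr4:40203777-40239825, GRCm38), had 164 and 202 normalised CPM in the miR-206 libraries, compared with 55.0 and 42.7 in the control libraries. Both miR-206 libraries were above both control libraries, and the log2 fold was 1.91 ± 0.32 (SE; edgeR adjusted p = 0.000216). On the TPM scale the same gene had 68.8 and 66.1 in the miR-206 libraries and 58.7 and 34.9 in the control libraries, and the call was lost there without median centring (log2 fold 0.57, limma adjusted p = 0.153). The count behind each TPM, an index of the mean length of the transcripts counted, was 0.683 and 0.950 of the library's median gene in the miR-206 libraries and 0.569 and 0.694 in the control libraries, a log2 difference of 0.36. Among 12518 genes, the 10th and 90th percentiles of that difference were -0.16 and 0.20. What part this has in the gap between the count and TPM scales was not tested.

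Dhx58 encodes LGP2, a RIG-I relative without the signalling domains, which modulates the other helicases (chr11:100694884-100704271). It was depleted, with 14.4 and 17.9 CPM in the miR-206 libraries, compared with 37.7 and 33.6 in the control libraries. The groups did not overlap, and the log2 fold was -1.14 ± 0.31 (edgeR adjusted p = 0.0126), but without miR-206 replicate 1 the adjusted p was 0.126. Ifih1, the gene of MDA5, which detects long double-stranded RNA, had 14.3 and 10.1 CPM in the miR-206 libraries and 16.4 and 22.2 in the control libraries. Its log2 fold of -0.66, with a 95% interval from -1.41 to 0.08, did not pass (edgeR adjusted p = 0.209). Zbp1, a sensor of Z-form nucleic acids, had 44.5 and 63.0 CPM in the miR-206 libraries and 29.7 and 63.2 in the control libraries, with overlapping groups and a log2 fold of 0.21 (interval -0.55 to 0.97).

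Ratios between related genes within a library are free of the scaling. The TPM ratio of Ddx58 to Dhx58 was 10.4 and 6.79 in the miR-206 libraries, compared with 1.17 and 0.943 in the control libraries. RIG-I transcripts were thus several times the LGP2 transcripts in the miR-206 captures and about level with them in the control captures. The ratio of Ddx58 to Ifih1 was 28.9 and 35.3 in the miR-206 libraries, compared with 10.5 and 6.19 in the control libraries. With 2 libraries a group, an exact permutation test of such a ratio cannot give a two-sided p below 0.333, so none was run.

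Mavs, the adaptor that passes the signal of RIG-I and MDA5 on (chr2:131234063-131248025), had 45.9 and 52.6 CPM in the miR-206 libraries, compared with 20.0 and 27.3 in the control libraries, a log2 fold of 1.06 ± 0.30 (edgeR adjusted p = 0.0170). The groups did not overlap in CPM, but they did in TPM, with 11.6 and 14.2 in the miR-206 libraries and 10.3 and 13.2 in the control libraries. The call was lost with the upper quartile (log2 fold 0.78), total counts (log2 fold -0.03), TPM and median-centred TPM, and after leaving out miR-206 replicate 1 (edgeR adjusted p = 0.054) or 2 (0.106).

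The receptor genes did not pass. Ifnar1 had 52.5 and 59.5 CPM in the miR-206 libraries and 41.5 and 40.2 in the control libraries (log2 fold 0.46, interval -0.14 to 1.05). Ifnar2, the chain that binds interferon more tightly, had 25.4 and 28.4 CPM in the miR-206 libraries and 26.2 and 32.2 in the control libraries (log2 fold -0.12, interval -0.75 to 0.51). Per length the 2 chains were close, with an Ifnar2 to Ifnar1 TPM ratio of 1.10 and 1.28 in the miR-206 libraries and 1.20 and 1.47 in the control libraries.

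Of the 5 transcription factor genes, Stat2 was depleted and 4 did not pass. Stat2, which carries the activation domain of the interferon-induced complex (chr10:128270498-128292853), had 35.7 and 77.9 CPM in the miR-206 libraries, compared with 199 and 166 in the control libraries. Both miR-206 libraries were well below both control libraries although they differed from each other, and the log2 fold was -1.68 ± 0.37 (edgeR adjusted p = 0.00317). The fold stayed past the threshold in all 15 alternatives, from -1.28 without miR-206 replicate 1 to -2.77 with total counts.

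Irf9, the DNA-binding member of that complex, had 26.1 and 30.7 CPM in the miR-206 libraries and 37.9 and 43.9 in the control libraries (log2 fold -0.53, edgeR adjusted p = 0.231). Irf1 had 20.6 and 21.0 CPM in the miR-206 libraries and 38.2 and 31.7 in the control libraries (-0.75, adjusted p = 0.0883 by edgeR). For Irf3, the constitutive factor that MAVS activates, the values were 2.09 and 3.87 CPM in the miR-206 libraries and 6.75 and 8.66 in the control libraries (-1.36, edgeR adjusted p = 0.0904). In these 3 genes the miR-206 libraries lay below the control libraries without overlap, but the folds did not pass with TMM. Each of these genes passed as depleted under 3 of the 6 scalings. Irf7, the interferon-induced factor of the family, was the most abundant of the 5, with 188 and 434 TPM in the miR-206 libraries and 296 and 575 TPM in the control libraries. In normalised CPM it had 459 and 992 in the miR-206 libraries and 345 and 705 in the control libraries. Its replicates differed by more than the groups: in CPM, replicate 2 was 2.16 times replicate 1 in the miR-206 pair and 2.04 times in the control pair. Its log2 fold of counts, 0.47 (edgeR adjusted p = 0.504), had the opposite sign on the TPM scale (-0.53) and with total counts (-0.56). It became -0.18 with miR-206 replicate 2 left out and 1.07 with control replicate 2 left out.

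Among the 6 enzymes that bind double-stranded RNA, Oas3 was enriched and 5 did not pass. The oligoadenylate synthetases make a small messenger on binding double-stranded RNA. Oas3, the form with the most synthetase units (chr5:120753098-120777684), had 19.3 and 30.7 CPM in the miR-206 libraries, compared with 9.19 and 13.0 in the control libraries, without overlap (log2 fold 1.17 ± 0.36, edgeR adjusted p = 0.0252). The call did not hold with the upper quartile, total counts, TPM or median-centred TPM. It was also lost without miR-206 replicate 2 (log2 fold 0.80) or control replicate 1 (0.95). In TPM the groups overlapped, at 2.90 and 4.97 for miR-206 and 2.93 and 4.07 for the control.

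Oas2, whose gene ends 3.2 kb from Oas3 on chromosome 5, had 24.4 and 44.7 CPM in the miR-206 libraries and 34.4 and 38.8 in the control libraries (log2 fold -0.08). The TPM ratio of Oas3 to Oas2 was 0.457 and 0.392 in the miR-206 libraries, compared with 0.159 and 0.189 in the control libraries, so the groups did not overlap. Oas1a had 15.6 and 21.9 CPM in the miR-206 libraries and 24.8 and 31.2 in the control libraries (log2 fold -0.58). The related Oasl2 had 120 and 153 CPM in the miR-206 libraries and 113 and 177 in the control libraries (log2 fold -0.09). Neither passed the threshold with TMM. With total counts Oas1a (log2 fold -1.66) and Oasl2 (-1.16) passed as depleted, as they did with TPM (-1.46 and -0.99). Eif2ak2, the gene of PKR, the kinase that halts translation on binding double-stranded RNA, had 91.1 and 88.3 CPM in the miR-206 libraries and 155 and 131 in the control libraries. Its groups did not overlap, and the log2 fold of -0.67 had an interval from -1.31 to -0.04 and an edgeR adjusted p of 0.130. Eif2ak2 passed as depleted under 3 of the 6 scalings. Adar, which edits adenosine in double-stranded RNA and so keeps it from being sensed, had a log2 fold of -0.30 (interval -0.93 to 0.33). Oas1a belongs to a family of near-identical copies, and its estimated counts depend on how reads were divided among them.

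**Figure D2:**
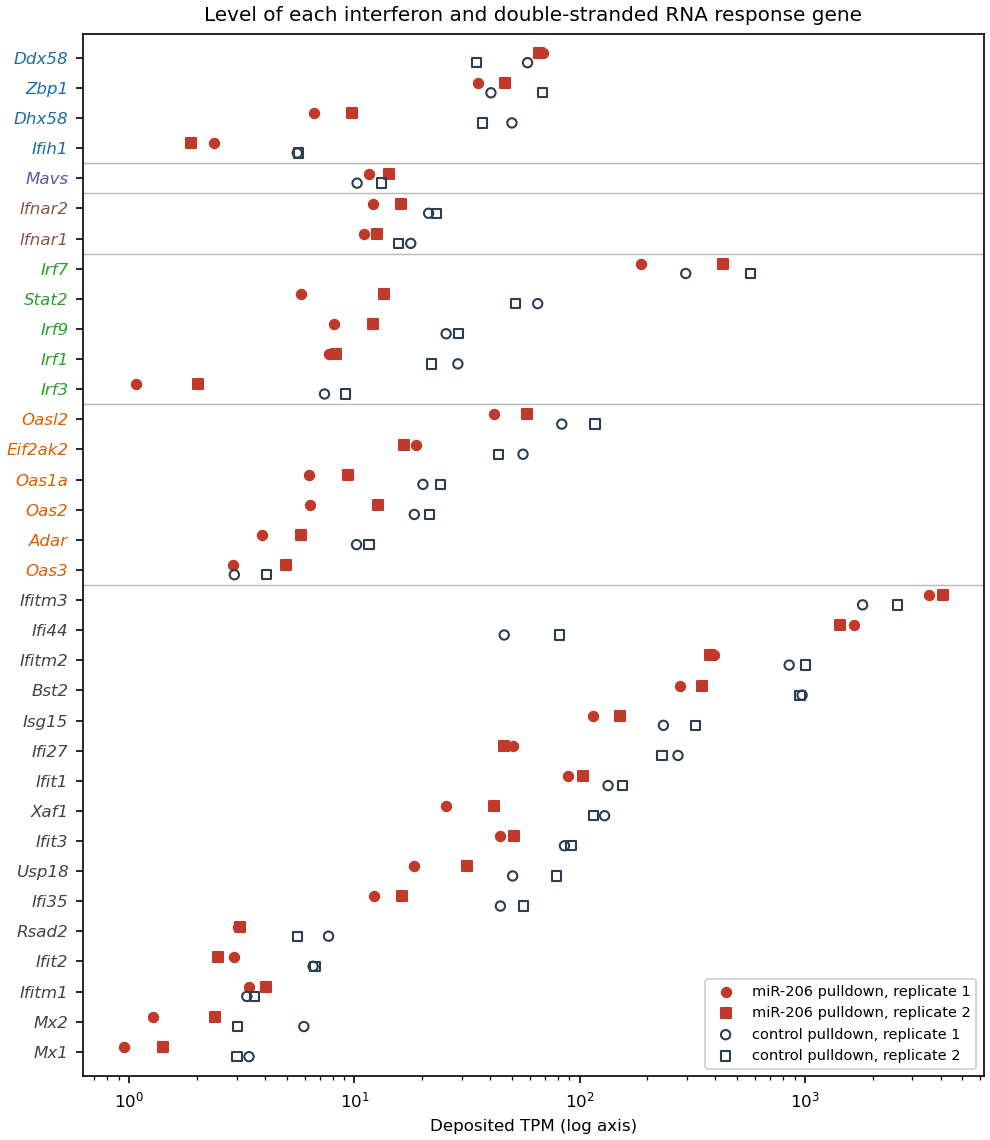
Deposited TPM of the 34 genes (log axis) in each library, with miR-206 pulldowns filled and control pulldowns open, in blocks by role. Ifitm3, at 3559 and 4094 TPM in the miR-206 libraries and 1803 and 2585 in the control libraries, is the most abundant, and Ifi44 is the gene whose groups lie farthest apart.

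Of the 16 induced effectors, Ifi44 and Ifitm3 were enriched, Ifi27 was depleted and 13 did not pass. Ifi44 encodes an interferon-induced protein with a GTPase-like fold (chr3:151730922-151749910). It had 6389 and 5131 normalised CPM in the miR-206 libraries, compared with 87.6 and 157 in the control libraries. Both miR-206 libraries were far above both control libraries, and the log2 fold was 5.56 ± 0.50, with an interval from 4.50 to 6.62, or 47.1-fold (edgeR adjusted p = 2.91e-07). The fold lay between 4.46 and 6.04 in all 15 alternatives and passed in each, with a highest adjusted p of 0.000142. In TPM, Ifi44 alone made up 24.8% and 19.2% of the sum over the 34 genes in the miR-206 libraries, compared with 0.845% and 1.19% in the control libraries. The ratio of Ifi44 to Isg15 TPM was 14.4 and 9.41 in the miR-206 libraries and 0.196 and 0.248 in the control libraries.

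The interferon-induced transmembrane proteins restrict the entry of enveloped viruses at membranes. Ifitm3 (chr7:141009590-141010744) had 2577 and 2793 CPM in the miR-206 libraries, compared with 645 and 986 in the control libraries, a log2 fold of 1.72 ± 0.40 (edgeR adjusted p = 0.00393). The groups did not overlap, but the call was lost with total counts (adjusted p = 0.0648 by edgeR) and without control replicate 1 (0.0614). Ifitm2 had 256 and 232 CPM in the miR-206 libraries and 273 and 345 in the control libraries (log2 fold -0.34, interval -1.03 to 0.35). The TPM ratio of Ifitm3 to Ifitm2 was 9.03 and 10.8 in the miR-206 libraries, compared with 2.12 and 2.57 in the control libraries. Ifitm1 was scarce, with 22 and 27 estimated counts in the miR-206 libraries and 22 and 20 in the control libraries. These genes lie within about 40 kb of their neighbours on chromosome 7 and have similar coding sequences, so kallisto's division of reads could move counts between them.

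Ifi27, a mitochondrial protein gene used as a marker of interferon exposure in human blood (chr12:103434189-103440245), had 40.1 and 36.6 CPM in the miR-206 libraries, compared with 107 and 93.0 in the control libraries. Both replicates of each group were close, and the log2 fold was -1.38 ± 0.29 (edgeR adjusted p = 0.00208), past the threshold in all 15 alternatives. Bst2, which encodes tetherin, had 237 and 280 CPM in the miR-206 libraries and 408 and 425 in the control libraries. That difference did not pass with TMM (log2 fold -0.69, edgeR adjusted p = 0.156), although the groups did not overlap. Bst2 passed as depleted under 3 of the 6 scalings. Ifi35 was closest to the threshold among the rest, with 12.2 and 16.3 TPM in the miR-206 libraries and 44.4 and 56.2 TPM in the control libraries (log2 fold of counts -0.87, edgeR adjusted p = 0.0524), and passed in 10 of 15 alternatives. Xaf1, a gene of apoptosis, had 28.7 and 46.2 CPM in the miR-206 libraries and 63.5 and 53.5 in the control libraries, without overlap. With TMM it fell short of the threshold (log2 fold -0.64, interval -1.29 to 0.01). It passed as depleted under 4 of the 6 scalings.

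The classical interferon-induced genes Isg15, Usp18 and Ifit1 did not pass with TMM. With total counts Isg15 (log2 fold -1.24) and Usp18 (-1.52) passed as depleted, as they did with TPM (-1.07 and -1.37). Isg15, the ubiquitin-like modifier, had 96.4 and 120 CPM in the miR-206 libraries and 97.4 and 144 in the control libraries (log2 fold -0.16, interval -0.83 to 0.51). Usp18, which removes ISG15 from proteins and damps receptor signalling, had 42.7 and 68.8 CPM in the miR-206 libraries and 57.9 and 95.2 in the control libraries (log2 fold -0.46, interval -1.16 to 0.25). Ifit1, whose product binds foreign 5′ ends of RNA, had 322 and 351 CPM in the miR-206 libraries and 239 and 291 in the control libraries (log2 fold 0.34, interval -0.35 to 1.03). The interval of each of these 3 genes spans 0 and reaches beyond 0.5 on at least one side, so equal levels were not shown.

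The neighbours of Ifit1 on chromosome 19 did not pass either with TMM, but the calls of all 3 depended on the scaling. With total counts Ifit1 (log2 fold -0.76), Ifit2 (-1.45) and Ifit3 (-1.07) all passed as depleted, and with TPM Ifit2 (-1.16) and Ifit3 (-0.89) did. Ifit3 had 102 and 110 CPM in the miR-206 libraries and 96.7 and 109 in the control libraries (log2 fold 0.04, interval -0.59 to 0.67). Ifit2 had 15.5 and 12.4 CPM in the miR-206 libraries and 17.3 and 17.7 in the control libraries (log2 fold -0.32). The TPM ratio of Ifit3 to Ifit2 was 15.2 and 20.6 in the miR-206 libraries, compared with 13.1 and 13.7 in the control libraries. Rsad2, the gene of viperin, had 105 and 174 estimated counts in the miR-206 libraries and 287 and 292 in the control libraries (log2 fold -0.39, interval -1.13 to 0.35). The dynamin-like GTPase genes were scarce. Mx1 had 35.1 and 61.3 estimated counts in the miR-206 libraries and 98.5 and 122 in the control libraries (log2 fold -0.52), and Mx2 had 24 and 49 in the miR-206 libraries and 135 and 98 in the control libraries (log2 fold -1.05, interval -2.22 to 0.12).

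Promoters of many interferon-induced genes carry interferon-stimulated response elements, which the STAT and IRF complex binds. The element was searched as GAAA, any 2 bases and GAAA, on both strands, in the 250 bases before the start in RefSeq promoters of GRCm38.p6, counting overlapping matches. Of the 34 genes, 27 had a promoter in the table, and 9 of these (33.3%) held a match, against 3.46% of 27025 genes. The genes were chosen as interferon-responsive, so this share describes the choice. Windows are shown for 2 classical induced genes and for the called genes Oas3 and Stat2, 5′ to 3′ on the strand of the gene, with matches in capitals.
Isg15, chr4:156200850-156200921, minus strand: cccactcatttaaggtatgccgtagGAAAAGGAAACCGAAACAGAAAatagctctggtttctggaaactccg
Ifit1, chr19:34640760-34640838, plus strand: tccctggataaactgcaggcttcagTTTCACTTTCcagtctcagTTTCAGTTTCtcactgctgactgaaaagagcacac
Oas3, chr5:120777700-120777759, minus strand: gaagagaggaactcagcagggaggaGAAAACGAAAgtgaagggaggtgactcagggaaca
Stat2, chr10:128270251-128270310, plus strand: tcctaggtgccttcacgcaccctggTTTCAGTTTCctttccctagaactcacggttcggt
Isg15 holds 3 overlapping matches and Ifit1 holds 2, while Oas3 and Stat2 hold 1 each. The median log2 fold was -0.34 (from -1.68 to 1.17) over the 9 genes with a match and -0.21 (from -1.36 to 5.56) over the 18 without, as a description. Ifi44, Ddx58, Mavs and Ifitm3 had no match in this window, which says nothing of elements elsewhere. The depleted genes Dhx58 and Ifi27 were not among the 27 with a promoter, so they were not searched and are outside this split.

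**Figure D3:**
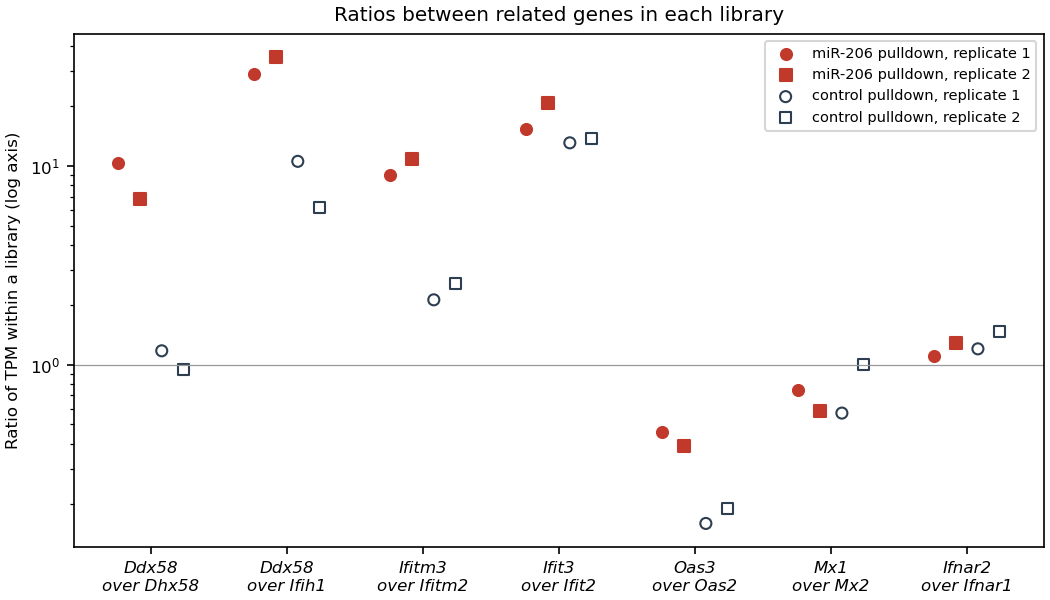
TPM ratio between related genes within each library (log axis), with miR-206 pulldowns filled and to the left of the open control pulldowns in each column. The Ddx58 to Dhx58 ratio is 10.4 and 6.79 in the miR-206 libraries and 1.17 and 0.943 in the control libraries. In TPM the Mx1 to Mx2 and Ifnar2 to Ifnar1 ratios overlap between groups. Their ratios of estimated counts do not. In counts Mx1 to Mx2 is 1.46 and 1.25 (miR-206) against 0.730 and 1.24 (control). Ifnar2 to Ifnar1 is 0.485 and 0.478 (miR-206) against 0.631 and 0.801 (control).

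All gene rows together held 665223 and 629789 TPM in the miR-206 libraries and 743941 and 729176 in the control libraries. TPM sums are therefore not on a common total. Per length, the 34 genes summed to 6696 and 7451 TPM in the miR-206 libraries, compared with 5468 and 6807 TPM in the control libraries. Ifitm3 and Ifi44 together made 77.9% and 74.1% of the sum in the miR-206 libraries, compared with 33.8% and 39.2% in the control libraries. Without them the other 32 genes summed to 1477 and 1928 TPM in the miR-206 libraries, compared with 3618 and 4141 TPM in the control libraries. On the same TPM scale the median log2 fold of all tested genes was -0.83. In TPM, both miR-206 libraries lay below both control libraries for 26 of the 34 genes and above for 3 (Ifitm3, Ifi44 and Ddx58), where 65.7% and 12.0% of all tested genes did so (77.7% without overlap). The authors' deposited table gives log2 folds of mean TPM that are above 0 for 6 of the 34 genes and below 0 for 28, with a median of -1.22, against -0.89 over its 14870 genes. In the authors' deposited table Ifi44 has 4.60, Ifitm3 0.80 and Ddx58 0.53, while Stat2 has -2.60, Irf3 and Dhx58 have -2.41 each and Ifi27 has -2.39.

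**Figure D4:**
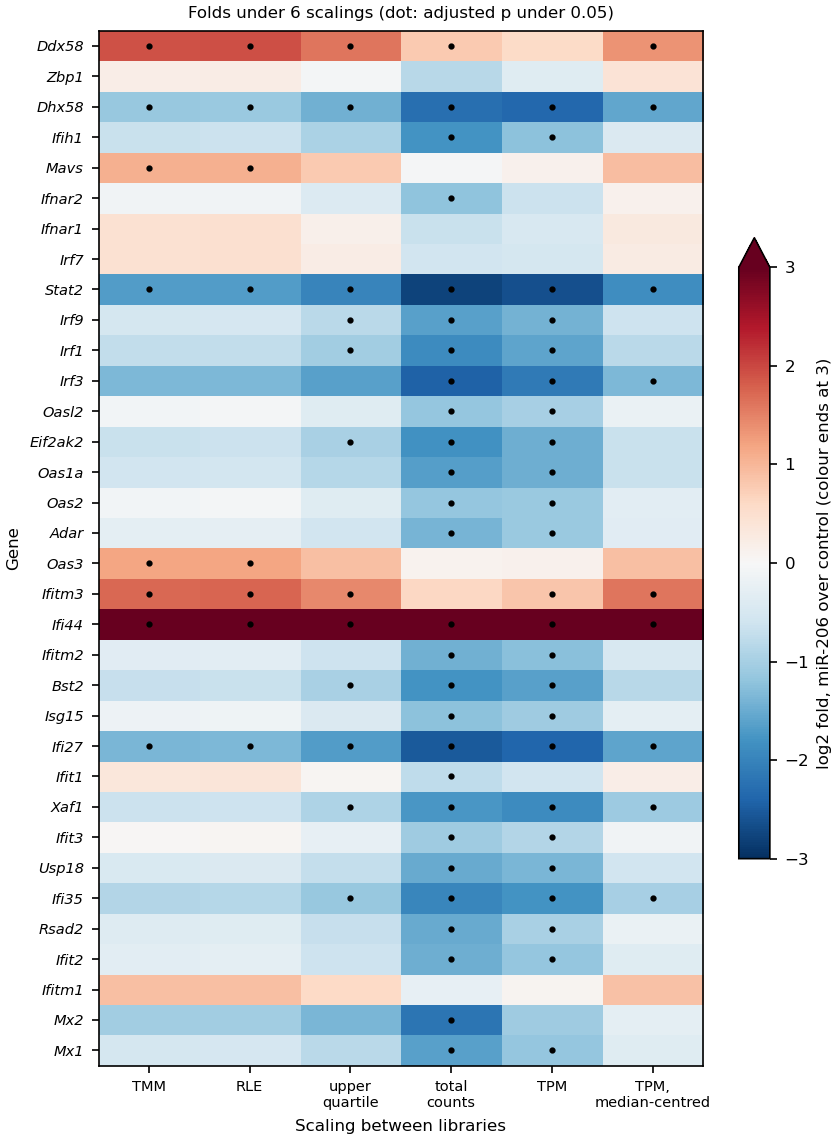
Log2 fold, miR-206 over control, of the 34 genes (rows) under 6 scalings between libraries (columns), with red higher and blue lower in the miR-206 pulldown and a dot where the adjusted p was under 0.05. Ifi44, Dhx58, Stat2 and Ifi27 carry a dot in every column, and the number of blue dotted cells grows from 3 with TMM to 25 with total counts.

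Other genes of the pathway were taken from 3 lists of 108 genes with a row, of which 102 were tested, and 18 were enriched and 8 depleted. These shares, 17.6% and 7.84%, lie near the 15.3% and 6.19% of all tested genes. The lists were written with earlier results of these data known. The interferon genes on these lists were nearly absent from the captures. Ifng had 0 counts in all 4 libraries, which allows up to 0.330 and 0.264 CPM in the miR-206 libraries and 0.209 and 0.157 in the control libraries, counting error only. Ifnb1 had 0 counts in both miR-206 libraries and 3 and 7 in the control libraries. Ifna4 had 1 and 0 in the miR-206 libraries and 7 and 0 in the control libraries. Ifnl2 had 0 and 4.23 estimated counts in the miR-206 libraries and 12.7 and 6.86 in the control libraries.

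In the list of sensing and signalling, 5 of 34 were enriched and 3 depleted, with a median log2 fold of 0.15. The shares of 14.7% and 8.82% do not set the list apart from all tested genes (15.3% and 6.19%). Socs1, an inhibitor of JAK kinases, had 30.6 and 39.3 CPM in the miR-206 libraries, compared with 4.25 and 3.25 in the control libraries (log2 fold 3.22). Irf2bp2, a corepressor partner of IRF2, had a log2 fold of 2.90, Mb21d1, the gene of the DNA sensor cGAS, 1.88, and the interferon-gamma receptor gene Ifngr2 1.38. The calls of Mb21d1 and Ifngr2 were lost with total counts (log2 fold 0.78 for Mb21d1 and 0.26 for Ifngr2) and with TPM, and each held in 11 of 15 alternatives. Depleted genes, named after their values were seen, included Tbk1, the kinase that acts on IRF3 (log2 fold -1.29), and Tarbp2, a double-stranded RNA binding partner of Dicer (-1.16). The calls of Tbk1 and Tarbp2 were each lost in at least 1 alternative, with edgeR adjusted p up to 0.191 and 0.141 when a library was left out.

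In the list of other induced genes, 13 of 58 were enriched and 4 depleted (22.4% and 6.90%, beside 15.3% and 6.19% of all tested genes), with a median of -0.16. Parp9 and Dtx3l, whose products form a complex that modifies histones, were both enriched. Parp9 had 557 and 595 CPM in the miR-206 libraries, compared with 27.4 and 35.1 in the control libraries (edgeR adjusted p = 2.35e-07). Dtx3l had 452 and 359 CPM in the miR-206 libraries, compared with 58.9 and 65.4 in the control libraries (log2 fold 2.71). Pml, which organises nuclear bodies (2.94), the helicase gene Helz2 (3.31) and Cd274, the gene of PD-L1 (2.45), were enriched too. Samd9l had 20.3 and 28.5 CPM in the miR-206 libraries, compared with 138 and 105 in the control libraries (log2 fold -2.31 ± 0.32). Socs1, Irf2bp2, Parp9, Dtx3l, Pml, Helz2, Cd274 and Samd9l passed in the same direction under all 15 alternatives. Among 10 genes of antigen processing, 0 were enriched and B2m, the light chain of MHC class I, was depleted, with 895 and 908 CPM in the miR-206 libraries, compared with 3224 and 2557 in the control libraries (log2 fold -1.68, edgeR adjusted p = 0.00393).

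**Figure D5:**
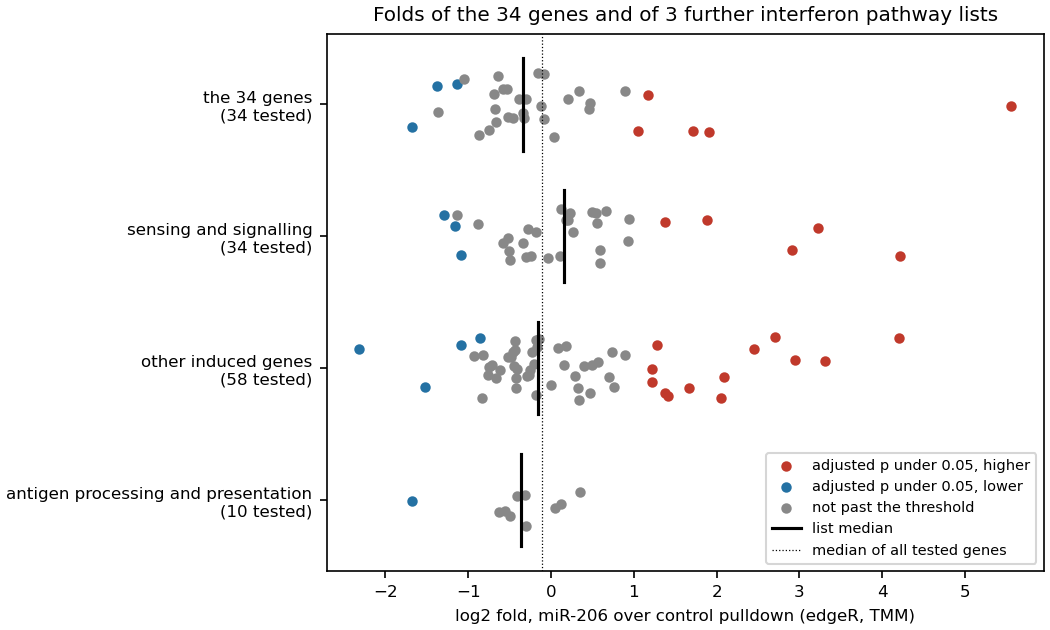
Log2 fold, miR-206 over control, of the 34 genes and of 3 further pathway lists, 1 point a gene, with red and blue for genes past the threshold, a bar at each list's median and a dotted line at the median of all tested genes. The list medians lie at -0.33, 0.15, -0.16 and -0.36, beside the dotted line at -0.11, while single genes reach 5.56 and -2.31.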

How the data were processed

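RNA captured with a miR-206 or a control mimic was sequenced in 4 libraries, 2 a group. The authors' processing notes, per the labels, name FastQC, kallisto and the mm10 build; their versions and the transcript annotation are not stated in the labels. The deposited table holds estimated counts and TPM for each library, made by the authors per the file headers. A further deposited sheet gives mean TPM per group and the log2 fold of these means, computed by the authors without a test. Estimated counts were rounded and tested with edgeR 4.0.16 in R 4.3.3 (TMM, filterByExpr, quasi-likelihood, robust), with Benjamini-Hochberg adjustment over all tested genes and a threshold of 0.05. The SE of a fold was taken as its size over the root of its F statistic, and the 95% interval follows from it. Alternatives used limma 3.58.1 on log2(TPM + 0.5, 0.1 or 1) and DESeq2 1.42.0. Group differences on the log2(TPM + pseudocount) scale understate changes of low genes. Barcodes in the titles gave the sample of each column, and 0 columns had no sample. A sheet of transcription factor names was not used. Depth was 8883197 to 15426666 estimated counts, and a floor of 3 counts is 0.157 to 0.330 CPM. The edgeR, limma and DESeq2 steps were tested on simulated data. The simulated libraries shared the same composition apart from symmetric changes, so the choice of scaling was not tested. All 34 members are reported, with values per library for called genes and for the roles described, and up to 6 called genes of each pathway list by smallest p with a mean of at least 1 CPM. Some genes that this rule names are not reported here. The members and lists were chosen with earlier results of these data known. Replicate numbers did not pair the samples by label, and deviations of same-numbered libraries correlated at -0.06. Of the pathway symbols, 5 had no row and were not analysed here; 2 of these are newer names of genes listed under older ones. Replicates differed by more than sampling noise (chi-square per gene 55.6 for the miR-206 and 43.8 for the control pair).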

Additional observations from a re-analysis of the deposited data

How the results depend on the processing

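Counts of called genes moved with the scaling. Of the 34 genes, 5 were enriched and 3 depleted with TMM, 3 and 9 with the upper quartile, 2 and 25 with total counts, 3 and 6 with median-centred TPM, and 2 and 22, 2 and 21, and 2 and 22 with TPM and a pseudocount of 0.5, 0.1 and 1. Leaving out 1 library gave 3 to 5 enriched and 2 to 5 depleted, with 3 enriched without miR-206 replicate 2 or control replicate 1. Of the pathway genes, 18 were enriched and 8 depleted with TMM, 10 and 58 with total counts, and 10 and 44, 10 and 43, and 10 and 43 with TPM at these pseudocounts, while the upper quartile gave 13 depleted. Leaving out 1 library gave 15 to 20 enriched and 3 to 14 depleted pathway genes. The cause of these shifts was not tested beyond the move of the median of all genes. The replicate block gave 5 enriched and 4 depleted of the 34, with Ifi35 added, and 2576 and 1129 of all tested genes, against 2327 and 944 without it. All tested genes numbered 1070 enriched and 6909 depleted with total counts, 1870 and 1962 with the upper quartile, 1103 and 5945 with TPM, and 456 depleted without miR-206 replicate 1 against 1567 without control replicate 1.

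Folds of 11 genes changed sign in at least 1 alternative, and of these Mavs had passed with TMM. Ifit3 with total counts and TPM, and Ifit1 with total counts, passed as depleted after the change. With total counts they were Zbp1 -0.84, Mavs -0.035, Ifnar1 -0.66, Irf7 -0.56, Ifit1 -0.76, Ifit3 -1.07 and Ifitm1 -0.24. With TPM and a pseudocount of 0.5, 0.1 and 1 they were Zbp1 -0.37, -0.37 and -0.37, Ifnar1 -0.49, -0.50 and -0.47, Irf7 -0.53, -0.53 and -0.53, Ifit1 -0.58, -0.59 and -0.58, and Ifit3 -0.89, -0.89 and -0.88. The upper quartile gave Zbp1 -0.047 and Ifit3 -0.25, median-centred TPM gave Ifnar2 0.13 and Ifit3 -0.10, and no count filter gave Ifit3 -0.00228. Without 1 library, the folds ranged from -0.23 to 0.86 for Zbp1, -0.26 to 0.042 for Ifnar2, -0.18 to 1.07 for Irf7, -0.37 to 0.28 for Oasl2, -0.58 to 0.24 for Oas2, -0.045 to 0.13 for Ifit3 and -0.41 to 0.15 for Isg15. Depth limits Ifitm1, Mx1, Mx2 and Irf3 most, which have the widest intervals.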

Other observations

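The count behind each TPM, relative to the median gene of the library, also differed between the groups for Mx2, at 0.592 and 0.556 in the miR-206 libraries and 0.958 and 0.967 in the control libraries, and for Ifnar2, at 0.601 and 0.549 in the miR-206 libraries and 0.746 and 0.792 in the control libraries. Log2 differences were -0.75 and -0.42, and 5.38% of 12518 genes differed by more than 0.5 in either direction. Counts and TPM of these genes therefore do not give the same fold.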
